A study of Homo sapiens with 24 samples.

Results

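The response of RBPMS knockout human embryonic stem cells to the first 6 h of mesoderm induction was set against the response of wild-type cells over the same hours. RBPMS encodes an RNA-binding protein, and the cells were HUES6, an established embryonic stem cell line, grown in FTDA medium. The comparison used 12 of the 24 RNA-seq libraries of the series, 3 in each of 4 groups: RBPMS knockout (KO) cells at 6 h of induction, KO cells before induction (0 h), wild-type (WT) cells at 6 h and WT cells at 0 h. Induction was 1.5 ng/ml BMP4 together with 1.5 µM CHIR, and the 0 h cells are labelled as controls. The value followed for each gene was the interaction, the KO change from 0 h to 6 h minus the WT change, on the log2 scale. A positive interaction means that the KO response lay above the WT response, and a negative one that it lay below. The labels do not give the KO clone, the edit, or the cultures behind the 3 libraries of a group. The p-values therefore measure only the spread between these libraries, which may be technical.

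Embryonic stem cells leave the pluripotent state when BMP and WNT signalling rise together. BMP4 acts through SMAD proteins, whose direct targets include the ID genes, and CHIR inhibits the kinase GSK3 and so stabilises β-catenin, the effector of canonical WNT signalling. In the embryo the same signals, with NODAL, set up the primitive streak, from which mesoderm and definitive endoderm form. An interaction in such a design can come from a difference that appears at 6 h or from one already there at 0 h, because it equals the KO minus WT difference at 6 h minus that at 0 h.

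The 24 libraries held 29896358 to 50451908 reads, so 3 reads corresponded to 0.0595 to 0.1003 CPM. CPM gives the reads of a gene per 1000000 reads of its library. RBPMS itself (ENSG00000157110, chromosome 8) had 101, 96.8 and 102 CPM in KO cells at 6 h and 158, 153 and 153 CPM in KO cells at 0 h. WT cells had 109, 108 and 101 CPM at 6 h and 155, 121 and 130 CPM at 0 h. RBPMS was not called lower in KO cells at any of the 4 hours, and at 0 h it was called higher (KO minus WT 0.25, adjusted p = 0.0391). With the edit not given, its level does not check the genotype label. The interaction of RBPMS was -0.33 ± 0.116 (log2 ± SE, adjusted p = 0.0793) and that of its paralog RBPMS2 was 0.10 ± 0.169 (adjusted p = 0.788). The 25 genes of a pluripotency list together reached 11648 to 12066 CPM in KO cells at 6 h, 15925 to 16146 CPM in KO cells at 0 h, 12341 to 12470 CPM in WT cells at 6 h and 13757 to 16284 CPM in WT cells at 0 h, and none of the 25 was without reads in all 12 libraries.

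WT library 1 at 0 h stood apart from its mates. Its log2 levels correlated with those of libraries 2 and 3 at r = 0.964 and 0.969 across genes, against 0.995 between libraries 2 and 3. The mitochondrial share of its reads was 4.64%, against 7.22% and 7.36% in the other two. PEG3, an imprinted gene on chromosome 19, had 13.8 CPM in WT library 1 at 0 h and no read in libraries 2 and 3, while all 9 later WT libraries held 28.4 to 45.4 CPM. Every interaction rests on the WT 0 h group, so each was recomputed without library 1 and with library 1 as the only WT 0 h library. Calls that held in both settings are named as such. In the second setting the lone WT 0 h library is assumed to vary like the libraries of the other groups. Where libraries are said to lie above or below all others, the others are the rest of the 12 compared.

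Of 19835 genes tested, 1702 (8.58%) had an interaction past an adjusted p of 0.05. The KO response lay above the WT response for 619 genes (3.12%) and below it for 1083 (5.46%). The genes with lower KO responses also had larger differences: their median was -1.04 log2, against 0.67 among those with higher KO responses, and 578 of them reached a size of 1 log2, against 129. Over all genes the median interaction was -0.01. Within each genotype the change over 6 h was broader, with 68.5% of genes called in KO cells (33.4% higher and 35.1% lower at 6 h) and 62.1% in WT cells (31.1% higher and 31.0% lower). Both settings of the WT 0 h group called 278 of the 619 and 688 of the 1083, and no called gene changed sign in either. Without WT library 1 the counts grew to 2478 higher and 2605 lower. Leaving out KO library 2 or 3 at 6 h gave 372 or 399 higher, KO library 2 at 0 h 374, WT library 2 or 3 at 6 h 392 or 411, and WT library 2 at 0 h 370. With WT library 1 as the only 0 h library, 1104 were higher and 1604 lower, and 110 and 122 genes were called in opposite directions by the 2 settings.

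Most interactions were differences in degree. Among the 619 genes with higher KO responses, 314 rose in both genotypes and 33 fell in both, 156 rose in KO cells without a called change in WT cells, 88 fell in WT cells without a called change in KO cells, and 28 rose in KO cells and fell in WT cells. Among the 1083 with lower KO responses, 529 fell in both genotypes and 53 rose in both, 334 fell in KO cells without a called change in WT cells, 94 rose in WT cells without a called change in KO cells, and 73 fell in KO cells and rose in WT cells. The plot of the KO against the WT response shows these classes around the diagonal of equal response.

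**Figure D1:**
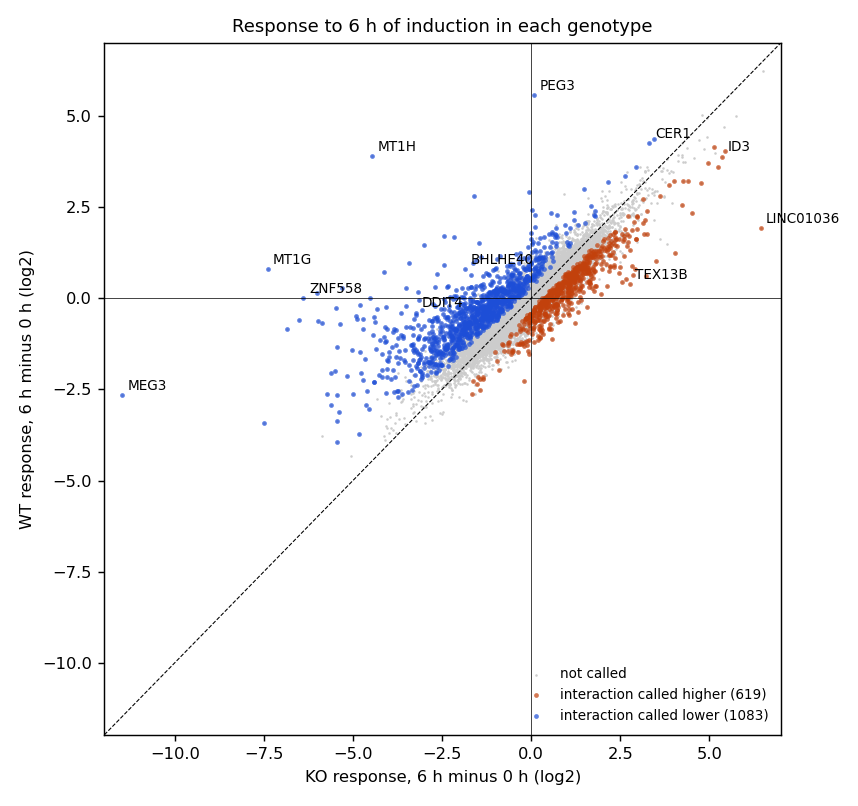
Response to 6 h of induction (log2, 6 h minus 0 h) in KO cells on the horizontal axis and in WT cells on the vertical axis, 1 point a gene; the dashed diagonal marks equal responses. Orange points are the 619 genes with an interaction called higher and blue points the 1083 called lower; the blue points spread farther from the diagonal, down to MEG3 at -8.82, and no orange point except LINC01036 (4.52) lies more than 3 log2 below it.

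For most genes the genotypes differed before induction and no longer passed the test at 6 h. Between KO and WT cells 15.3% of all genes differed at 0 h (8.77% higher and 6.52% lower in KO cells) and 2.45% at 6 h (0.555% higher and 1.9% lower). Of the 1702 interaction genes, 1125 (66.1%) were called between genotypes at 0 h and not at 6 h, 243 (14.3%) at 6 h and not at 0 h, 122 at both hours in opposite directions, 18 at both in the same direction and 194 at neither. The 1125 divide into 645 with higher and 480 with lower KO levels at 0 h. The 243 divide into 203 with lower and 40 with higher KO levels at 6 h. This sorting uses the same libraries as the interaction and describes it.

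The levels of the 3 h and 48 h libraries took no part in that sorting, though these libraries were in the same fit and shared its estimate of spread. Of the 203 genes that were lower in KO cells at 6 h only, 148 (72.9%) were also called lower in KO cells at 3 h and none was called higher, while 1.92% of all genes were called lower there. Of the 40 that were higher at 6 h only, 20 (50.0%) were called higher in KO cells at 3 h, against 0.862% of all genes. At 48 h the picture differed: 28 of the 203 were called lower in KO cells and 56 higher, against 5.07% and 6.86% of all genes. Of the 645 genes higher in KO cells at 0 h, 8 were called higher at 3 h and 26 lower, and at 48 h 191 (29.6%) were called higher and 28 lower. Of the 480 lower in KO cells at 0 h, 1 was called lower at 3 h and 6 higher, and at 48 h 68 (14.2%) were called lower and 17 higher. The labels name no culture, passage or clone for any library, so the hour of induction and a difference between cultures cannot be told apart.

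**Figure D2:**
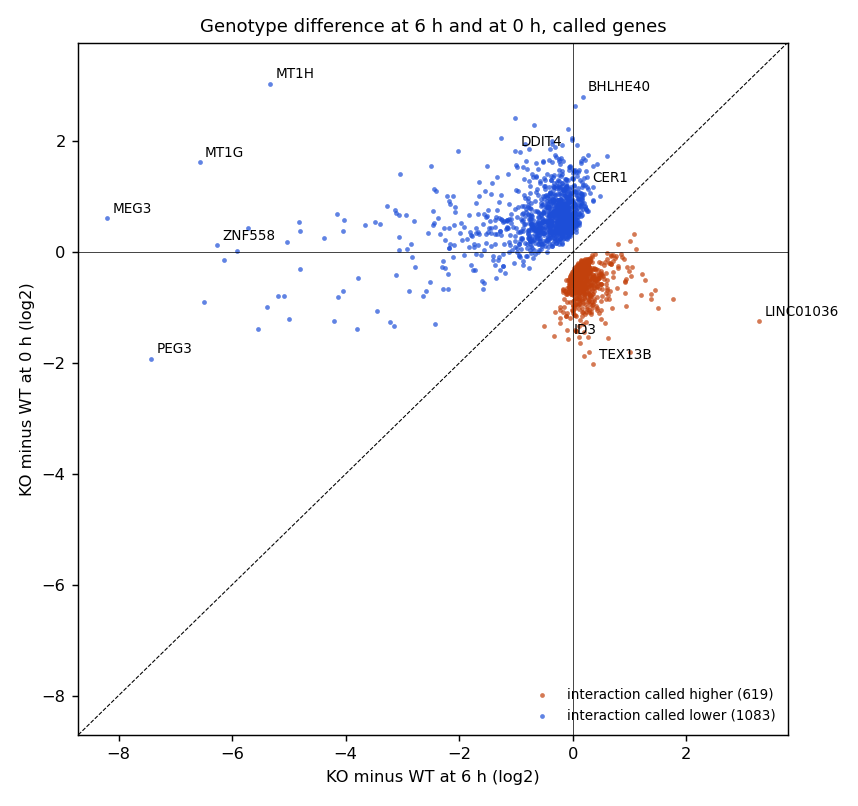
KO minus WT level (log2) at 6 h on the horizontal axis and at 0 h on the vertical axis, for the 1702 genes with a called interaction; points below the dashed diagonal (orange) have higher and points above it (blue) lower KO responses. Most points gather near 0 on the 6 h axis, and a tail of blue points reaches left to MEG3, PEG3 and MT1G, where KO levels at 6 h were far below WT levels.

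Most of the largest interactions belonged to genes that were expressed in KO cells at 0 h and almost absent from KO cells at 6 h. MEG3, a maternally expressed imprinted long noncoding RNA (ENSG00000214548, chr14:100779410-100861031, plus strand), had 0.0938, 0.0214 and 0.1003 CPM in KO cells at 6 h and 998, 890 and 898 CPM in KO cells at 0 h. WT cells had 107, 84.6 and 82.2 CPM at 6 h and 284, 794 and 1104 CPM at 0 h. The 3 KO libraries at 6 h held 8 MEG3 reads in all, and no other group overlapped with them. The KO response was -11.48 and the WT response -2.65, an interaction of -8.82 ± 0.385 (adjusted p = 1.15e-13). In bulk RNA, fewer cells expressing a gene and less RNA per cell cannot be told apart.

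ZNF558, which encodes a KRAB zinc finger protein (ENSG00000167785, chr19:8806170-8832328, minus strand), had no read in any KO library at 6 h, 22.03, 19.3 and 21.3 CPM in KO cells at 0 h, 18.1, 17.9 and 18.02 CPM in WT cells at 6 h and 31.03, 15.01 and 16.7 CPM in WT cells at 0 h. Against a floor of 3 reads per library, its KO level at 6 h was at least 267-fold lower than in KO cells at 0 h and at least 230-fold lower than in WT cells at 6 h. ZNF22 (ENSG00000165512, chr10:45000475-45005326, plus strand), another zinc finger gene, had 0.305, 0.385 and 0.335 CPM in KO cells at 6 h and 54.8, 57.8 and 55.9 CPM in KO cells at 0 h. WT cells had 33.9, 34.4 and 36.6 CPM at 6 h and 42.1, 69.8 and 65.4 CPM at 0 h. Its interaction was -5.94 ± 0.182 (adjusted p = 2.2e-16), with no overlap between KO cells at 6 h and any other group. CBR1, a carbonyl reductase (ENSG00000159228, chr21:36069941-36073166, plus strand), had 0.0234, 0.0428 and 0.0335 CPM in KO cells at 6 h and 29.5, 32.4 and 36.8 CPM in KO cells at 0 h. WT cells had 18.1, 21.4 and 17.5 CPM at 6 h and 33.9, 43.4 and 35.3 CPM at 0 h. Its interaction was -6.01 ± 0.233 (adjusted p = 1.37e-14).

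ZNF844 (-6.16), ZNF253 (-5.61), the pseudogene FAR2P2 (-5.37), LNCPRESS1 (-5.22), a p53-regulated long noncoding RNA of human embryonic stem cells, ZNF562 (-5.19), ZNF528 (-4.85) and ZNF880 (-4.61) followed the same course, with adjusted p-values from 2.2e-16 to 7.66e-12. FAR2P2 rested on 1 read in KO cells at 6 h, 1962 times fewer CPM than in KO cells at 0 h (95% counting interval 352 to 77540). A fitted log2 value of a gene with so few reads depends on the constant added before the logarithm. Low values may include reads shared with near-identical copies, since how the authors assigned such reads is not given in the sources used here.

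By a rule set after the values were seen, 26 genes had at most 0.5 CPM in every KO library at 6 h, at least 5 CPM in every KO library at 0 h and at least 1 CPM in every WT library at 6 h. With KO and WT exchanged, 0 genes met it. At 3 h, 22 of the 26 were at or below 0.5 CPM in every KO library, and at 48 h 23 were again at 5 CPM or more in every KO library. In WT cells 25 of the 26 had at least 1 CPM in all 12 libraries. The rule itself required this at 6 h. The rule used the KO groups and the WT 6 h group of the interaction, so a negative interaction of the 26 follows largely from it. ZNF562 and ZNF880, with up to 0.736 and 0.727 CPM in KO cells at 6 h, were outside the rule. The 26 include MGMT, the DNA repair enzyme that removes alkyl groups from guanine, CFLAR, an inhibitor of caspase-8 activation, TMLHE, an enzyme of carnitine synthesis, CTSF, a lysosomal protease, and CSRP1.

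**Figure D3:**
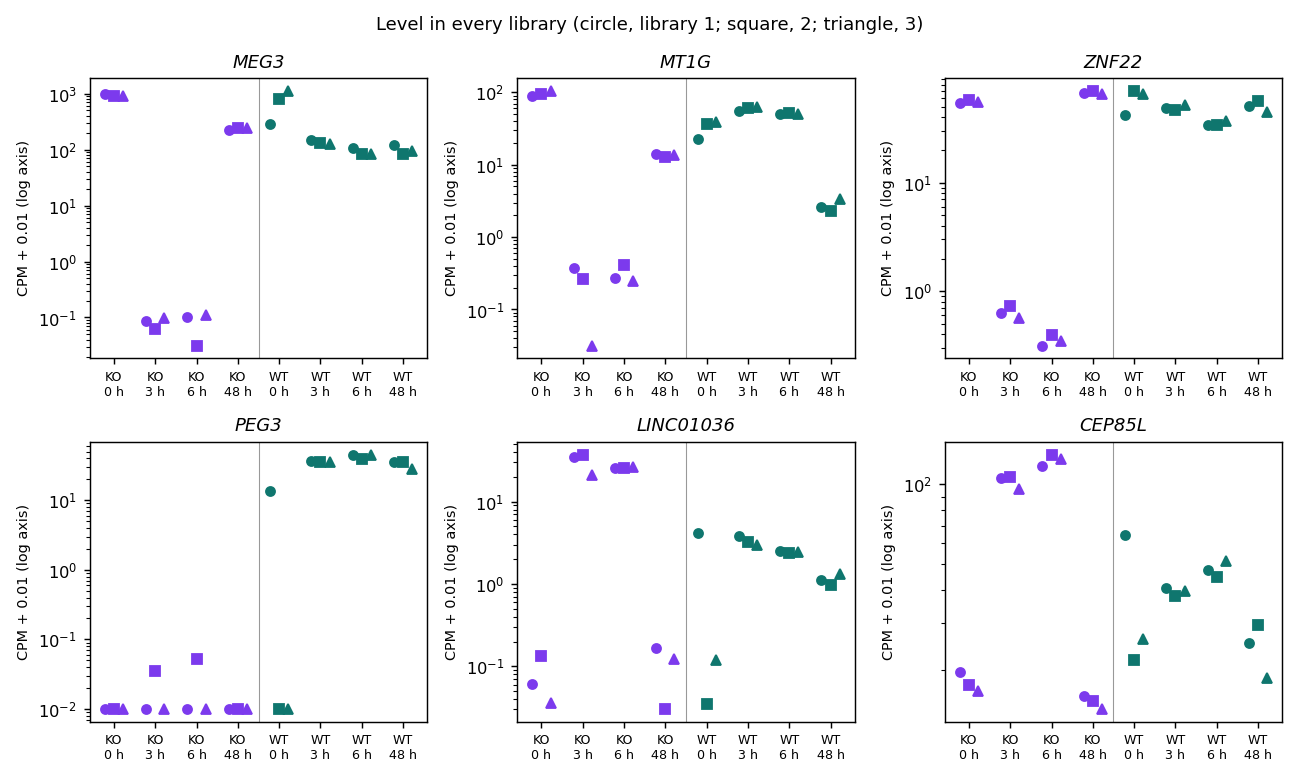
CPM plus 0.01 on a log axis in each of the 24 libraries for 6 genes, KO groups at left (purple) and WT groups at right (green), each from 0 h to 48 h; marker shape gives the library number. MEG3, MT1G and ZNF22 were near the floor in the KO libraries at 3 h and 6 h and not at 0 h or 48 h, and PEG3, LINC01036 and CEP85L show WT library 1 at 0 h apart from libraries 2 and 3.

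Zinc finger genes whose symbols begin with ZNF supplied 8 of the 26 near-silent genes, 5 of them on chromosome 19, where the largest clusters of KRAB zinc finger genes lie. Of 477 ZNF genes tested, 50 (10.5%) had lower and 13 higher KO responses, with a median interaction of -0.04. On chromosome 19, 34 of 236 (14.4%) were lower and 4 higher, with a median of -0.12. These shares stand beside 5.46% lower and 3.12% higher over all genes. ZNF genes share sequence with each other, and whether reads were split between them is not known. The medians lay near 0, and the large values belonged to single members.

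Metallothioneins are small cysteine-rich proteins that bind zinc and copper, and their genes lie in a cluster on chromosome 16. Of 9 metallothionein genes tested, 4 had lower KO responses and none higher, with a median of -1.14, and 3 calls held in both settings of the WT 0 h group. Shares over all genes were 5.46% lower and 3.12% higher. MT1G (chr16:56666731-56668065, minus strand) had 0.258, 0.406 and 0.234 CPM in KO cells at 6 h and 87.6, 93.8 and 104 CPM in KO cells at 0 h. WT cells had 49.6, 51.3 and 50.8 CPM at 6 h and 22.7, 36.0 and 39.1 CPM at 0 h. It fell by 7.39 in KO cells and rose by 0.80 in WT cells on the log2 scale, an interaction of -8.20 ± 0.313 (adjusted p = 1.28e-14).

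MT1H, a neighbour of MT1G in the cluster (chr16:56669814-56671129, plus strand), had 0, 0.0428 and 0 CPM in KO cells at 6 h and 5.36, 5.39 and 6.17 CPM in KO cells at 0 h. WT cells had 9.51, 9.63 and 10.5 CPM at 6 h and 1.19, 0.400 and 0.163 CPM at 0 h. The KO groups and the WT groups moved apart in opposite directions, with an interaction of -8.37 ± 0.422 (adjusted p = 1.45e-12). Its 2 reads in KO cells at 6 h were 336 times fewer CPM than in KO cells at 0 h (95% counting interval 92.6 to 2780) and 587 times fewer than in WT cells at 6 h (162 to 4854). MT1E did not share this course: it had 49.0, 46.6 and 48.6 CPM in KO cells at 6 h and 20.6, 22.6 and 22.4 CPM in KO cells at 0 h. WT cells had 32.4, 31.6 and 31.3 CPM at 6 h and 5.499, 7.54 and 6.93 CPM at 0 h. MT1E rose in both genotypes, by 1.22 in KO cells and 2.35 in WT cells, and its interaction was -1.14 ± 0.292 (adjusted p = 0.0158). The summed level of the 9 genes was 239.4 to 268 CPM in KO cells at 6 h, 247 to 284 CPM in KO cells at 0 h, 239.04 to 249 CPM in WT cells at 6 h and 109 to 115 CPM in WT cells at 0 h, and the ranges at 6 h overlapped between genotypes. The MT1 genes are near-identical copies and reads could be assigned to the wrong member.

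Metallothionein genes are switched on by the metal-sensing factor MTF1 through metal response elements. The RefSeq promoter of MT1H is shown (GRCh38.p14, chr16:56669564-56669863, plus strand, 250 bases before to 50 after the gene's start). MT1H had the largest difference within the family, and MT1G and MT1E had no entry among the RefSeq promoters used. Capitals mark matches to the core letters TGCACNC or TGCGCNC on either strand, with overlapping matches counted separately.
MT1H: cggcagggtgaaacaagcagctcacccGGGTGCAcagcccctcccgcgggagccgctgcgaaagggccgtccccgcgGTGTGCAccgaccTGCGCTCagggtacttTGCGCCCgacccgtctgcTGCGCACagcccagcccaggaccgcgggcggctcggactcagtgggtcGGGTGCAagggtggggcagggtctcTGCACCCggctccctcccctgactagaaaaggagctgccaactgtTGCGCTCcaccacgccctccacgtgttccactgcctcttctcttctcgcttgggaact
It held 8 matches. Of 35116 promoters of that length, 29.6% held at least 1 match and 0.0199% held as many as MT1H. A match describes the letters and not occupancy by a factor.

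Imprinted genes, of which either the maternal or the paternal copy is silent, had 1 higher and 6 lower KO responses among 28 tested, with a median of -0.16, and all 7 calls held in both settings of the WT 0 h group. Shares over all genes were 3.12% higher and 5.46% lower. MEG3 is described above, and MEG8 (-2.11) and MEG9 (-2.26), which lie with it in the DLK1-DIO3 region, were also lower. NNAT, a paternally expressed membrane protein gene, had 0.0234, 0.0642 and 0.0335 CPM in KO cells at 6 h, 3.16, 3.10 and 3.15 CPM in KO cells at 0 h, 4.44, 4.56 and 4.91 CPM in WT cells at 6 h and 3.95, 7.51 and 6.88 CPM in WT cells at 0 h, an interaction of -3.32 ± 0.274 (adjusted p = 1.11e-08). PEG3, a paternally expressed zinc finger gene, had 0, 0.0428 and 0 CPM in KO cells at 6 h and no read in KO cells at 0 h, against 45.4, 38.7 and 44.8 CPM in WT cells at 6 h and 13.8, 0 and 0 CPM in WT cells at 0 h. Its interaction was -5.50 ± 1.16 (adjusted p = 0.00364), with KO cells at or near 0 at both hours and WT 0 h libraries that disagreed. PEG10, a paternally expressed gene of retrotransposon origin, was the member with a higher KO response, at 271, 283 and 265 CPM in KO cells at 6 h and 187, 181 and 168 CPM in KO cells at 0 h. WT cells had 227, 212 and 224 CPM at 6 h and 208, 214 and 196 CPM at 0 h (interaction 0.47 ± 0.109, adjusted p = 0.00856). Its KO libraries at 6 h lay above those of every other group.

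Higher KO responses were smaller, and for the largest of them the WT 0 h libraries disagreed. LINC01036, a long intergenic noncoding RNA (chr1:187070700-187686622, plus strand), had 25.3, 25.5 and 26.1 CPM in KO cells at 6 h and 0.0506, 0.125 and 0.0262 CPM in KO cells at 0 h. WT cells had 2.52, 2.34 and 2.44 CPM at 6 h and 4.10, 0.0250 and 0.109 CPM at 0 h. The KO libraries at 6 h lay above all others, and WT library 1 at 0 h exceeded its mates. The interaction was 4.52 ± 0.798 (adjusted p = 0.000629). LRRC37A11P (2.81), a pseudogene, and CEP85L (2.21), a centrosomal protein gene, showed the same split of the WT 0 h libraries: CEP85L had 117, 130 and 125 CPM in KO cells at 6 h and 19.7, 17.5 and 16.7 CPM in KO cells at 0 h. WT cells had 47.7, 44.9 and 51.4 CPM at 6 h and 64.7, 21.9 and 26.3 CPM at 0 h. The calls of all 3 genes held in both settings.

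For KCNAB1, CEP85L, FAAH and TM4SF18 the genotypes differed at 6 h, with KO levels higher. KCNAB1, an auxiliary subunit of voltage-gated potassium channels, had 6.45, 7.40 and 7.12 CPM in KO cells at 6 h and 0.658, 0.998 and 0.656 CPM in KO cells at 0 h. WT cells had 2.41, 2.79 and 2.49 CPM at 6 h and 0.733, 1.87 and 2.37 CPM at 0 h (interaction 2.13 ± 0.327, adjusted p = 0.000126). FAAH, the hydrolase that degrades the endocannabinoid anandamide, had 23.3, 20.9 and 24.5 CPM in KO cells at 6 h and 4.60, 6.04 and 5.56 CPM in KO cells at 0 h. WT cells had 9.17, 9.14 and 9.71 CPM at 6 h and 13.6, 5.82 and 6.42 CPM at 0 h (interaction 1.78 ± 0.284, adjusted p = 0.000213). In both genes every KO library at 6 h lay above every library of the other groups. KO minus WT at 3 h was 1.40 for KCNAB1 (adjusted p = 0.000432) and 1.19 for FAAH (adjusted p = 0.000567), in libraries that the interaction did not compare. At 48 h it was 0.95 for KCNAB1 (adjusted p = 0.00705) and of opposite sign for FAAH, at -1.16 (adjusted p = 0.000264).

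Other higher KO responses were those of genes that began lower in KO cells and were not called between genotypes at 6 h. BCHE, butyrylcholinesterase, had 7.34, 7.28 and 7.02 CPM in KO cells at 6 h and 1.26, 1.05 and 1.02 CPM in KO cells at 0 h. WT cells had 5.40, 5.93 and 6.37 CPM at 6 h and 6.58, 3.90 and 3.86 CPM at 0 h. Its interaction was 2.08 ± 0.223 (adjusted p = 9.11e-07), and the KO libraries at 0 h lay below all others. TEX13B (2.38), NPFFR2 (2.17), a receptor for RFamide neuropeptides, and DHRS2 (1.65), a short-chain dehydrogenase, also began lower, with KO minus WT at 0 h of -2.02, -1.54 and -1.45. The calls of DHRS2, GCNT4 (1.81), the histone gene H2AC6 (1.77) and RGS5 (1.34) did not hold in both settings of the WT 0 h group. RGS5 had 11.6, 11.7 and 12.1 CPM in KO cells at 6 h, 13.96, 13.7 and 12.6 CPM in KO cells at 0 h, 11.03, 11.7 and 9.99 CPM in WT cells at 6 h and 13.7, 54.6 and 46.9 CPM in WT cells at 0 h, so only WT libraries 2 and 3 at 0 h were high.

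Many targets of the hypoxia-inducible factors (HIF), transcription factors that act when oxygen is low, had lower KO responses. Of 24 hypoxia genes, 15 had lower KO responses and none higher, and 10 of the calls held in both settings of the WT 0 h group. Over all genes 5.46% had lower and 3.12% higher KO responses. The median interaction of the 24 was -0.97, from a median KO response of -1.44 and a median WT response of -0.41. At 0 h 19 of the 24 were higher in KO cells and none lower, beside 8.77% higher and 6.52% lower of all genes. At 6 h 2 of the 24 were lower and none higher, beside 1.9% lower and 0.555% higher of all genes. The summed level of the 24 was 913 to 973 CPM in KO cells at 6 h, 2420 to 2493 CPM in KO cells at 0 h, 1005 to 1065 CPM in WT cells at 6 h and 1071 to 1970 CPM in WT cells at 0 h. By this sum the KO libraries at 0 h lay above all others. WT library 1 at 0 h was the highest of its group for 17 of the 24 genes, as the heat map of the list shows.

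BHLHE40, a transcriptional repressor and HIF target, had 21.9, 21.7 and 22.9 CPM in KO cells at 6 h and 93.8, 82.9 and 80.0 CPM in KO cells at 0 h. WT cells had 20.2, 19.8 and 19.3 CPM at 6 h and 16.9, 8.89 and 12.8 CPM at 0 h. It fell by 1.84 in KO cells and rose by 0.79 in WT cells on the log2 scale (interaction -2.64 ± 0.237, adjusted p = 4.98e-08). DDIT4, an inhibitor of mTORC1 induced by hypoxia and other stresses, had 27.1, 29.4 and 24.7 CPM in KO cells at 6 h and 250, 279 and 289 CPM in KO cells at 0 h. WT cells had 50.9, 59.7 and 55.1 CPM at 6 h and 53.3, 90.3 and 105 CPM at 0 h (interaction -2.84 ± 0.268, adjusted p = 1.16e-07). The KO libraries of DDIT4 were the highest of the 4 groups at 0 h and the lowest at 6 h. VEGFA, the vascular growth factor, had 31.3, 29.2 and 29.1 CPM in KO cells at 6 h and 67.8, 67.1 and 65.9 CPM in KO cells at 0 h. WT cells had 44.6, 42.5 and 38.4 CPM at 6 h and 35.0, 48.4 and 46.7 CPM at 0 h (interaction -1.17 ± 0.185, adjusted p = 0.00019). ANKRD37 fell in both genotypes, by 3.31 in KO cells and 1.71 in WT cells (interaction -1.60 ± 0.257, adjusted p = 0.000219).

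The RefSeq promoters of 3 of these genes are shown (GRCh38.p14, plus strand, 250 bases before to 50 after the gene's start). All 3 genes had lower KO responses, though in WT cells BHLHE40 rose and ANKRD37 fell. VEGFA had no entry among the RefSeq promoters used. The 3 promoters lie at chr3:4979187-4979486 for BHLHE40, chr10:72273674-72273973 for DDIT4 and chr4:185396591-185396890 for ANKRD37. Capitals mark matches to ACGTG or GCGTG, the core of hypoxia response elements, on either strand, with overlapping matches counted separately.
BHLHE40: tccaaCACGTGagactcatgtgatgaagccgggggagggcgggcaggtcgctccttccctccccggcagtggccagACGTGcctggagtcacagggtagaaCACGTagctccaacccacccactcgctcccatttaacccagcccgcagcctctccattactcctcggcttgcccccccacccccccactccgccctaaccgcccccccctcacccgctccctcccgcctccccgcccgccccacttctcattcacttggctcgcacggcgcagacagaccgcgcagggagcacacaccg
DDIT4: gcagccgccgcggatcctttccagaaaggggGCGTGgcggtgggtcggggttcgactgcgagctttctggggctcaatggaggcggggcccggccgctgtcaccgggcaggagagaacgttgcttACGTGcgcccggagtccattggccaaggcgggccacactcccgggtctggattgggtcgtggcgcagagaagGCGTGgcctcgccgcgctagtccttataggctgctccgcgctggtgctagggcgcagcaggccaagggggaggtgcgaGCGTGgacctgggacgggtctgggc
ANKRD37: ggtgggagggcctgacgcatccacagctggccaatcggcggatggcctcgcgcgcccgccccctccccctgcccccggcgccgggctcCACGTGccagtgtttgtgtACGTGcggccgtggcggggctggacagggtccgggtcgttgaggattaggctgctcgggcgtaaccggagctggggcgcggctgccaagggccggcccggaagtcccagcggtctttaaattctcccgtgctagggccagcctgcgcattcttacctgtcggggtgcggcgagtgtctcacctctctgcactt
BHLHE40 and DDIT4 held 4 matches each, as many as 4.4% of 35116 promoters did, and ANKRD37 held 3, as many as 10.1% did. At least 1 match was present in 48.4% of all promoters, so such letters are common and do not mark bound sites.

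The calls among glycolysis genes had the same sign. Of 21, 9 had lower KO responses and none higher, beside 5.46% lower and 3.12% higher over all genes. The median interaction of the 21 was -0.74, from a median KO response of -0.41 and a median WT response of 0.22. Their summed level was 16750 to 16940 CPM in KO cells at 6 h and 23859 to 25213 CPM in KO cells at 0 h. In WT cells it was 18044 to 19524 CPM at 6 h and 13039 to 27455 CPM at 0 h, so the ranges at 0 h overlapped between genotypes. Only 2 of the 9 calls, HK1 and SLC16A3, held in both settings of the WT 0 h group. LDHA, which turns pyruvate into lactate, had 1324, 1414 and 1323 CPM in KO cells at 6 h and 2657, 2826 and 2748 CPM in KO cells at 0 h. WT cells had 1581, 1692 and 1711 CPM at 6 h and 2661, 1102 and 1424 CPM at 0 h. WT library 1 at 0 h was at the KO level, and the interaction of -1.11 ± 0.272 (adjusted p = 0.012) did not hold in both settings. HK1, a hexokinase, had 191, 192 and 184 CPM in KO cells at 6 h and 716, 716 and 725 CPM in KO cells at 0 h. WT cells had 220, 232 and 232 CPM at 6 h and 602, 476 and 482 CPM at 0 h (interaction -0.80 ± 0.133, adjusted p = 0.000321). SLC16A3, a lactate exporter, had an interaction of -2.14 ± 0.392 (adjusted p = 0.0009) over WT 0 h libraries of 43.8, 12.2 and 18.4 CPM.

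**Figure D4:**
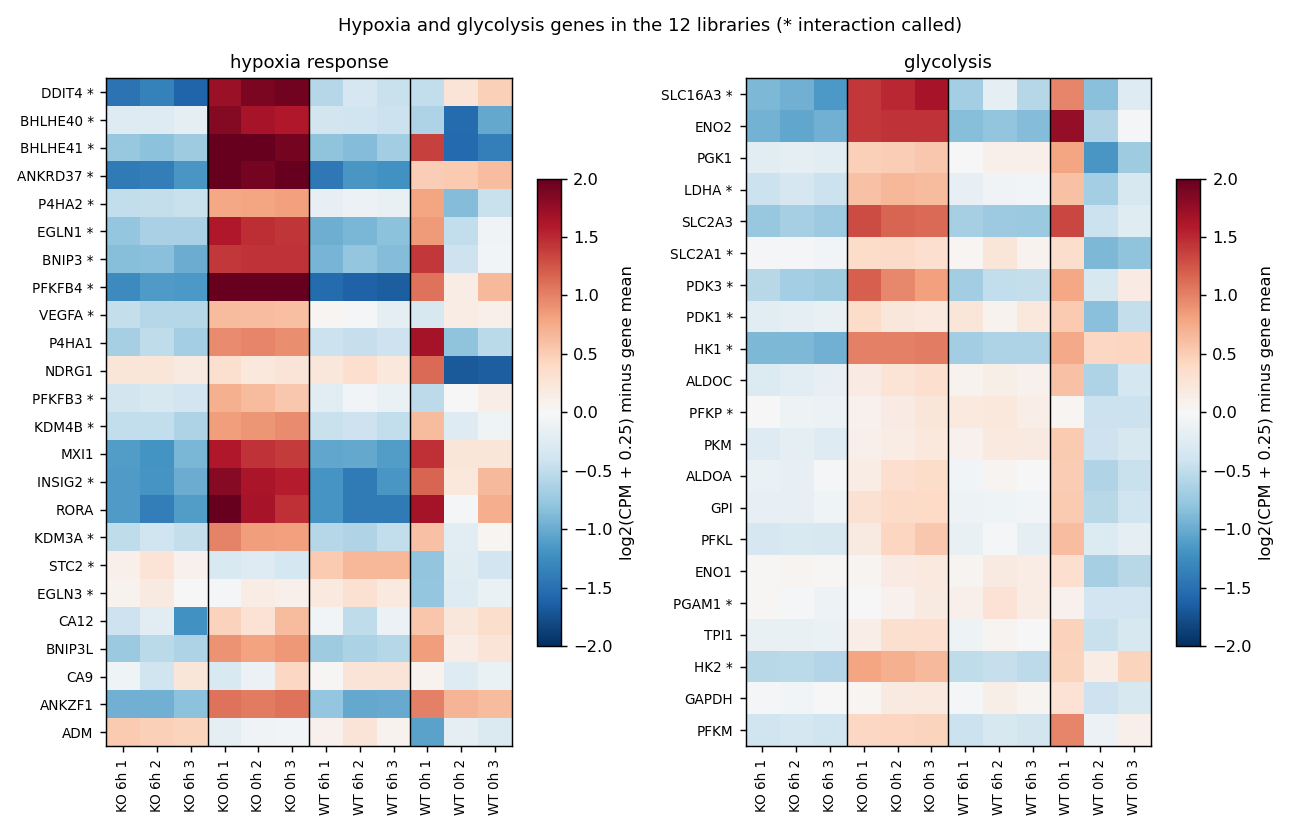
log2(CPM + 0.25) minus the gene's mean over the 12 libraries (colour, which saturates at 2 in either direction) for the 24 hypoxia genes and the 21 glycolysis genes, ordered by interaction; asterisks mark called interactions (15 and 9). Columns are libraries in the order KO 6 h, KO 0 h, WT 6 h, WT 0 h. The KO 0 h libraries all lie above the other 9 in 13 of the 24 hypoxia rows and in 4 of the 21 glycolysis rows. WT library 1 at 0 h is the highest of its group in 17 of the 24 and 20 of the 21 rows.

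Pluripotency genes had 7 lower and 1 higher KO response among 25, with a median interaction of -0.41, and 6 of the 8 calls held in both settings. Over all genes 5.46% had lower and 3.12% higher KO responses. ZFP42 (REX1), a marker of the undifferentiated state, had 30.9, 30.4 and 30.3 CPM in KO cells at 6 h and 213, 210 and 211 CPM in KO cells at 0 h. WT cells had 148, 143 and 151 CPM at 6 h and 108, 256 and 245 CPM at 0 h. KO libraries at 6 h lay below all others, and the interaction was -2.47 ± 0.254 (adjusted p = 4.57e-07). DPPA2, a chromatin factor of early embryos, had 4.71, 5.24 and 4.68 CPM in KO cells at 6 h and 50.1, 51.4 and 51.1 CPM in KO cells at 0 h. WT cells had 9.67, 10.8 and 10.1 CPM at 6 h and 32.6, 28.9 and 30.2 CPM at 0 h (interaction -1.80 ± 0.127, adjusted p = 6.75e-10). DPPA5 (-2.17), KLF4 (-0.93), TDGF1 (-0.56), NANOG (-0.54) and LIN28A (-0.45) were lower as well, NANOG and LIN28A not in both settings. TERF1, a telomere-binding protein gene, was higher (0.60 ± 0.113, adjusted p = 0.00124), and fell by 0.24 in KO cells and 0.84 in WT cells. The other 17 had no called interaction, among them POU5F1 (-0.11 ± 0.155, adjusted p = 0.72) and SOX2 (-0.03 ± 0.157, adjusted p = 0.932). VENTX, a homeobox gene outside the list, rose by 1.49 in WT cells and changed by 0.03 in KO cells (adjusted p = 0.853 in KO cells), with an interaction of -1.46 ± 0.165 (adjusted p = 1.98e-06).

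Of 19 primitive streak genes, 10 rose and 3 fell in KO cells, and 10 rose and 2 fell in WT cells. Over all genes 33.4% rose in KO cells and 31.1% in WT cells. Among the 19, 3 had a called interaction, beside 8.58% of all genes. SP5, a direct WNT target, had 2.95, 2.18 and 2.78 CPM in KO cells at 6 h and 0.885, 0.824 and 0.787 CPM in KO cells at 0 h. WT cells had 3.53, 3.43 and 3.20 CPM at 6 h and 0.324, 0.175 and 0.217 CPM at 0 h. The smaller KO rise (interaction -1.51 ± 0.279, adjusted p = 0.000954) thus started from a higher 0 h level. LEFTY2, a NODAL antagonist, was lower (-1.23 ± 0.327, adjusted p = 0.0193), and the ligand WNT3 was higher (1.07 ± 0.287, adjusted p = 0.0205) but not in both settings. The median of the list was -0.04.

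Of 20 BMP targets, 16 rose in KO cells and 15 in WT cells, against 33.4% and 31.1% of all genes. Among the 20, 2 had higher KO responses and none lower (median 0.18). The counts of called interactions in this paragraph stand beside 3.12% higher and 5.46% lower over all genes. ID3, an inhibitor of basic helix-loop-helix factors, had 361, 263 and 251 CPM in KO cells at 6 h and 5.67, 6.42 and 10.1 CPM in KO cells at 0 h. WT cells had 278, 367 and 283 CPM at 6 h and 13.8, 33.4 and 24.6 CPM at 0 h. Its groups overlapped at 6 h and not at 0 h, and its interaction (1.48 ± 0.353, adjusted p = 0.0101), like that of ID4 (0.79 ± 0.176, adjusted p = 0.00581), did not hold in both settings. The WNT list had 1 higher and 2 lower of 23 (median -0.20), and the NODAL list none higher and 4 lower of 19 (median -0.30), namely CER1, FOXH1, LEFTY2 and TDGF1. The FOXH1 call did not hold in both settings. CER1, a secreted antagonist of NODAL, BMP and WNT, had 8.95, 10.5 and 9.80 CPM in KO cells at 6 h and 0.961, 0.724 and 0.761 CPM in KO cells at 0 h. WT cells had 7.92, 7.75 and 9.08 CPM at 6 h and 0.216, 0.2497 and 0.217 CPM at 0 h (interaction -0.93 ± 0.139, adjusted p = 9.33e-05).

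In the FGF and ERK list 1 of 21 was higher and 2 lower (median -0.13), beside 3.12% and 5.46% of all genes. DUSP6, a phosphatase that restrains ERK and an ERK target, had 62.1, 66.9 and 59.2 CPM in KO cells at 6 h and 14.5, 12.03 and 12.7 CPM in KO cells at 0 h. WT cells had 58.8, 64.9 and 58.3 CPM at 6 h and 64.0, 37.1 and 20.9 CPM at 0 h. The interaction of 1.48 ± 0.315 (adjusted p = 0.00393) held in both settings, with WT 0 h libraries that spread widely. ETV4, an ETS factor downstream of FGF, was lower (-0.59). Of 28 immediate early genes, IER3 was higher (1.04) and EGR3 (-1.27), KLF10 (-1.06), FOSL2 (-0.998) and KLF6 (-0.77) lower, with a median of 0.04. The FOSL2 call did not hold in both settings. In lists of later cell types, read beside the 8.58% of all genes called, KDR, a VEGF receptor, was the single call of 18 cardiac and lateral plate genes (-1.13 ± 0.183, adjusted p = 0.000235, list median -0.11). DLL3, DLL1 and HOXB1 were lower among 12 paraxial mesoderm genes (median -0.08), DLL1 and HOXB1 not in both settings. Among 12 endoderm genes CER1 and CXCR4 were lower and PRDM1 higher (median -0.06). The CXCR4 call was kept in 4 of the 12 settings that leave out a library, and that of PRDM1 did not hold in both settings of the WT 0 h group. TFAP2C and IGFBP3 were lower among 11 amnion and trophoblast genes (median -0.16), IGFBP3 not in both settings.

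**Figure D5:**
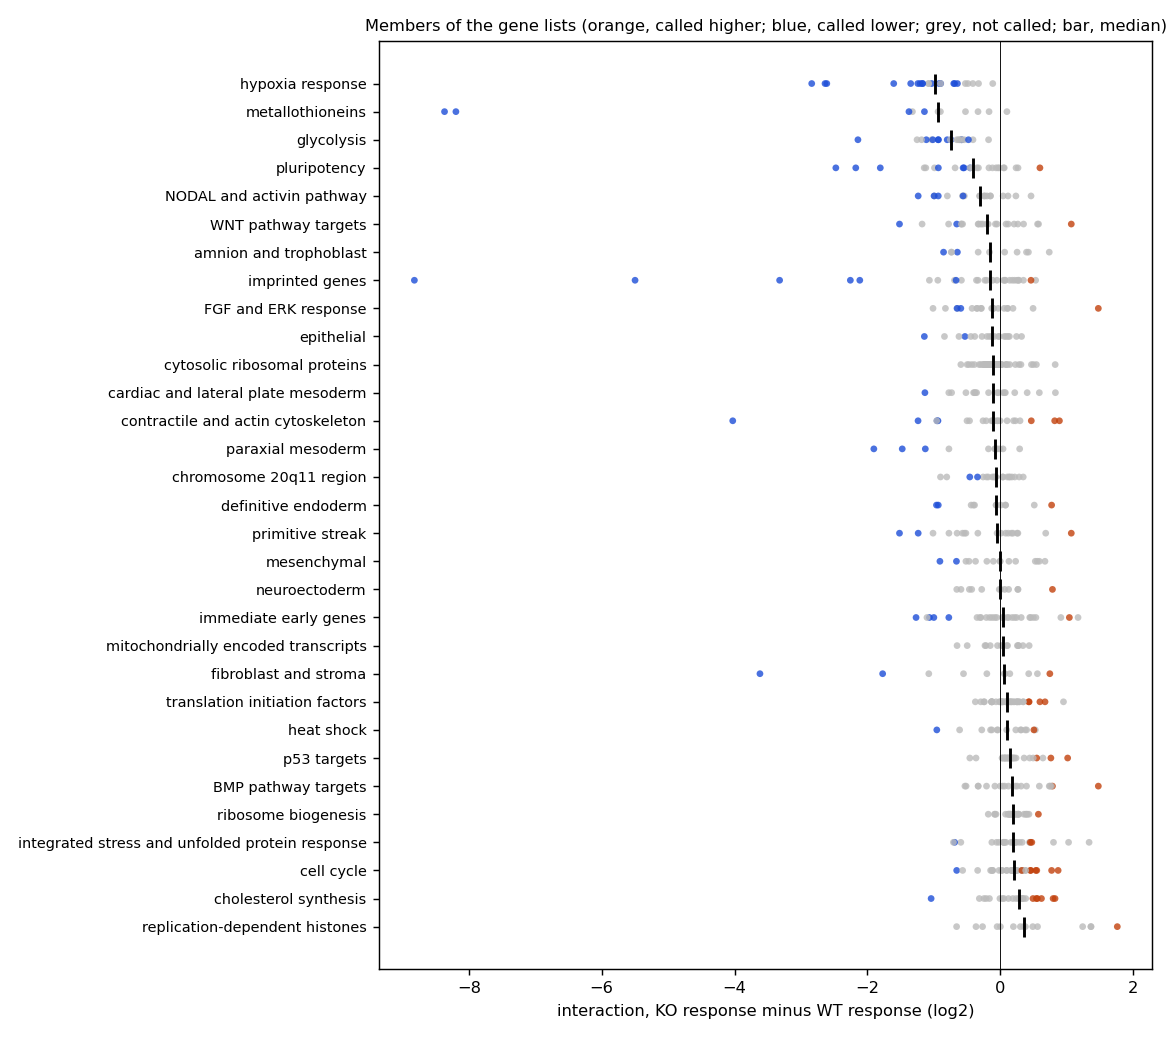
Interaction (log2, KO response minus WT response) of every tested member of 31 gene lists, 1 row a list in order of its median (black bar), with members called higher in orange, lower in blue and not called in grey. The hypoxia, metallothionein (here with the transporter SLC30A1 and the regulator MTF1) and glycolysis lists have the lowest medians (-0.97, -0.93 and -0.74), and the histone list the highest (0.35).

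Collagen and cytoskeletal genes split by member. COL1A2, a chain of type I collagen, had 3.35, 3.17 and 3.28 CPM in KO cells at 6 h and 123.2, 121 and 120 CPM in KO cells at 0 h. WT cells had 25.9, 27.1 and 27.4 CPM at 6 h and 62.9, 83.1 and 93.8 CPM at 0 h. It fell in both genotypes and further in KO cells (interaction -3.62 ± 0.234, adjusted p = 1.48e-10), as did COL1A1 (-1.77 ± 0.287, adjusted p = 0.000247). Both belong to an 11-gene fibroblast and stroma list with 1 higher and 2 lower calls and a median of 0.06, beside 3.12% higher and 5.46% lower over all genes. FAP, a fibroblast marker outside the 11, had no read in the 12 libraries. That list summed to 483 to 503 CPM in KO cells at 6 h, 684 to 706 CPM in KO cells at 0 h, 644 to 700 CPM in WT cells at 6 h and 537 to 936 CPM in WT cells at 0 h, and the part of stromal cells in the collagen values was not tested.

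Of 24 contractile and actin genes, 3 were higher and 4 lower (median -0.10), and 6 of the 7 calls held in both settings. Shares over all genes were 3.12% higher and 5.46% lower. CSRP1, a LIM protein of smooth muscle, had 0.375, 0.471 and 0.368 CPM in KO cells at 6 h and 12.3, 14.5 and 13.5 CPM in KO cells at 0 h. WT cells had 6.52, 7.41 and 6.89 CPM at 6 h and 3.41, 16.1 and 14.9 CPM at 0 h (interaction -4.03 ± 0.481, adjusted p = 4.65e-06). CNN1, calponin, had 16.5, 16.6 and 17.7 CPM in KO cells at 6 h and 17.3, 18.3 and 18.6 CPM in KO cells at 0 h. WT cells had 27.6, 30.8 and 28.0 CPM at 6 h and 14.98 to 18.03 CPM at 0 h. The WT libraries at 6 h lay above all others, and the interaction was -0.95 ± 0.146 (adjusted p = 0.000132). ACTC1, cardiac actin, rose by 0.71 in KO cells and 1.94 in WT cells (interaction -1.24 ± 0.168, adjusted p = 2.64e-05). MYL9, a myosin regulatory light chain, went the other way, with 54.2, 50.8 and 51.9 CPM in KO cells at 6 h and 15.96, 19.3 and 19.1 CPM in KO cells at 0 h. WT cells had 71.3, 80.8 and 72.7 CPM at 6 h and 44.6, 54.4 and 44.2 CPM at 0 h (interaction 0.82 ± 0.165, adjusted p = 0.00226). Its KO libraries stayed below the WT libraries at both hours.

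Cholesterol synthesis genes had 6 higher and 1 lower of 23 (median 0.29), beside 3.12% higher and 5.46% lower over all genes. Of the 23, 12 were lower and 1 higher in KO cells at 0 h, beside 6.52% and 8.77% of all genes. None was called between genotypes at 6 h, beside 2.45% of all genes. HMGCS1, an early enzyme of the pathway, had 590, 577 and 605 CPM in KO cells at 6 h and 162, 156 and 159 CPM in KO cells at 0 h. WT cells had 698, 615 and 674 CPM at 6 h and 245, 399 and 356 CPM at 0 h (interaction 0.83 ± 0.188, adjusted p = 0.00678). Its call, like that of IDI1, did not hold in both settings, while those of FDFT1 and MSMO1 did. Cell cycle genes had 7 higher and 1 lower of 33 (median 0.21), of which only E2F2 (0.78 ± 0.178, adjusted p = 0.0071) held in both settings. RRM2, a ribonucleotide reductase subunit, rose by 3.26 in KO cells and 2.38 in WT cells (interaction 0.87 ± 0.204, adjusted p = 0.00829).

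The p53 list had 3 higher and none lower of 27 (median 0.16): TIGAR (1.02), CDKN1A (0.77) and TP53I3 (0.55), none of which held in both settings. Translation initiation factors had 4 higher of 39 (median 0.10), led by EIF5 (0.68 ± 0.127, adjusted p = 0.00114), and the stress-response list had 2 higher and 1 lower of 26 (median 0.20). The counts of these 3 lists stand beside 3.12% higher and 5.46% lower over all genes. None of 79 cytosolic ribosomal protein genes (median -0.11) or 15 mitochondrially encoded transcripts (median 0.04) had a called interaction, by limma with all 24 libraries. The share called over all genes was 8.58%, and the absence of a call does not show equal responses.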

How the data were processed

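RNA was made into stranded mRNA libraries (Illumina TruSeq) and sequenced. The authors' deposited gene table holds CPM, reads per 1000000 reads of the library. Its header is shifted by 1 cell, and with the shift undone 24 of 24 libraries matched a library of their own group best in the deposited transcript counts, 20 of them the library of the same name (whole numbers, used for this check alone). The submitters' processing notes name hg38 and DESeq2; the aligner, the annotation and the use of strand in counting are not given in the sources used here. CPM values were whole multiples of 1 read within 0.1 reads for 100% of values, which gave the reads of each library. Of 57820 gene identifiers, 90.52% received a symbol, while 51.61% matched GENCODE 29 with their version; gene coordinates are those of GENCODE 29 (GRCh38).

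Genes with enough reads (edgeR filterByExpr, minimum 10, total 15) were tested with limma 3.58.1 with a trend on log2(CPM + 0.25) after TMM scaling (edgeR 4.0.16), all 24 libraries in a single fit of 8 groups, in R 4.3.3, with Benjamini-Hochberg adjustment over 19835 genes. Fold changes on this scale understate those of low genes. Errors are SE of the fit, and counting intervals are exact binomial at 95% and, like floors, cover counting error only. The procedure was tested on simulated data. The members and gene lists were chosen with earlier results of these data known. Named genes were RBPMS and RBPMS2, the 12 largest called interactions in each direction with a size of 1 log2 and 5 CPM in a group, the 4 largest of each response pattern, and up to 4 per list with the smallest adjusted p; XIST, TSIX and Y-linked genes were left out. Other genes were named after their values were seen. Alternatives were other scalings, filters and added constants, edgeR and DESeq2 1.42.0 on the recovered reads, library weights, a replicate block and left-out libraries. Some members of the cholesterol synthesis list are counted but not reported singly here.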

Additional observations from a re-analysis of the deposited data

Results flagged for a closer look

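Each result here is a difference between the genotypes' responses, tested by the interaction itself (limma, Benjamini-Hochberg over all genes): 619 genes with higher and 1083 with lower KO responses. The largest negative interactions (log2) were those of MEG3 (-8.82), MT1H (-8.37), MT1G (-8.20), ZNF558 (-6.38), ZNF844 (-6.16), CBR1 (-6.01), ZNF22 (-5.94), ZNF253 (-5.61), PEG3 (-5.50), FAR2P2 (-5.37), LNCPRESS1 (-5.22) and ZNF562 (-5.19). The largest positive ones were those of LINC01036 (4.52), LRRC37A11P (2.81), TEX13B (2.38), CEP85L (2.21), NPFFR2 (2.17), KCNAB1 (2.13), BCHE (2.08), GCNT4 (1.81), FAAH (1.78), H2AC6 (1.77), TM4SF18 (1.70) and DHRS2 (1.65). Named for their response pattern were ZNF528 (-4.85), ZNF880 (-4.61), ARRDC3 (-1.47), VENTX (-1.46) and RGS5 (1.34). Of the genes named here, GCNT4, H2AC6, DHRS2 and RGS5 were not called with WT library 1 as the only WT 0 h library.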

How the results depend on the processing

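The counts of genes with higher or lower KO responses (619 and 1083) stayed within 1.5 times under RLE factors (657 and 1058), upper-quartile factors (573 and 1163), deposited CPM (763 and 971), edgeR (636 and 899) and the other filters and added constants. DESeq2 called 933 higher and 1041 lower. Library weights, whose estimation did not fully converge, gave 2313 and 2807, leaving out WT library 1 at 0 h, KO library 3 at 3 h and WT library 3 at 48 h together gave 4144 and 3922, and WT library 1 as the only WT 0 h library gave 1104 and 1604; the cause was not tested. Leaving out each of the 12 libraries in turn gave 370 to 2478 higher and 785 to 2605 lower, the upper ends without WT library 1 at 0 h, and 252 and 638 genes were called in all 12. Of 106 named results in 26 alternatives, 58 kept their call throughout, and none reversed. Same-numbered libraries did not pair (r of their deviations -0.202 to 0.287 over 18 pairs, 3 over 0.1); with the replicate number as a block, 586 were higher and 1046 lower. Levels below 0.0595 to 0.1003 CPM rest on fewer than 3 reads.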

Other observations

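HSPA1A, an inducible HSP70 chaperone, had 7.97, 7.77 and 7.36 CPM in KO cells at 6 h, 17.1, 20.2 and 21.1 CPM in KO cells at 0 h, 19.9, 18.9 and 18.5 CPM in WT cells at 6 h and 23.8, 23.4 and 28.98 CPM in WT cells at 0 h. KO libraries at 6 h lay below the other 9 libraries compared, with an interaction of -0.95 ± 0.202 (adjusted p = 0.00375). At 3 h KO minus WT was -1.27 (adjusted p = 1.78e-06). Of the 15 heat shock genes DNAJA1 was higher (0.51) and HSPA1A lower, beside 3.12% higher and 5.46% lower over all genes, and the median was 0.10. HSPA1A has a near-identical copy, HSPA1B, so reads could be split between them. The interaction of HSPA1B was 0.10 ± 0.187 (adjusted p = 0.812).

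ARRDC3, an arrestin-domain protein that restrains β-adrenergic signalling, had 40.5, 44.2 and 43.0 CPM in KO cells at 6 h, 48.1, 42.0 and 40.4 CPM in KO cells at 0 h, 41.0, 34.2 and 41.1 CPM in WT cells at 6 h and 22.02, 10.9 and 12.7 CPM in WT cells at 0 h. The WT libraries at 0 h lay below all others (interaction -1.47 ± 0.236, adjusted p = 0.000213).

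Epithelial genes had 2 lower of 19 (ESRP1, -0.53, and TJP3, -1.14; median -0.13), neither in both settings of the WT 0 h group. Mesenchymal genes had 2 lower of 15: FN1 (-0.66) and VIM (-0.91), VIM in both settings. Neuroectoderm genes had 1 higher of 12, SOX3 (0.79), whose call was kept in 5 of the 12 settings that leave out a library, as against 4 for DNAJA1, 2 for FN1, 6 for BCL2L1 and 1 for NOP58. The medians of the mesenchymal and neuroectoderm lists lay near 0 and changed sign with the scaling of the libraries. Replication-dependent histone genes had 1 higher of 15 (median 0.35), ribosome biogenesis genes 1 of 28 (NOP58, 0.58; median 0.19), and the chromosome 20q11 region, often gained in cultured stem cells, 2 lower of 20 (COMMD7, -0.46, and BCL2L1, -0.34; median -0.07). The counts of all lists in this paragraph stand beside 3.12% higher and 5.46% lower over all genes, 8.58% in either direction.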
